A study of Mus musculus with 22 samples.

Results

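The release of neurotransmitter was examined at the level of RNA through 45 genes that encode the presynaptic machinery for vesicle release and recycling. They were taken by name from a table of 21995 genes measured in mouse spinal cord, the synaptotagmins being left out, and all 45 were found and passed the filter on low counts in both comparisons. Whole spinal cords came from 22 C57BL/6 mice, with 1 RNA-seq library per mouse. For aging, 8 young wild-type mice at 3 to 4 months were compared with 8 old wild-type mice at 18 to 24 months, all male. For amyotrophic lateral sclerosis (ALS), 3 SOD1 G93A mice at 5 to 6 months, a high-copy line whose transgene is human SOD1 carrying the mutation G93A and whose motor neurons degenerate, were compared with 3 wild-type control mice of the same age range. The study gives females and males in both ALS groups, and the labels do not give the sex of each library. The aging libraries were made with the Roche KAPA HyperPrep kit and the ALS libraries with Illumina TruSeq, so each comparison was made within 1 kit.

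At a presynaptic terminal, vesicles filled with transmitter are docked and primed at the active zone, a protein scaffold opposite the receiving cell. Calcium entry then drives the SNARE proteins of vesicle and plasma membrane to zip together and fuse the membranes, and the vesicle membrane is taken back by endocytosis and refilled. The transcripts for these proteins lie mostly in neuronal cell bodies, which in the spinal cord include motor neurons as well as inhibitory and excitatory interneurons. Terminals that descend from the brain, or enter from sensory ganglia, are made by cells whose bodies are outside the tissue. In bulk tissue, fewer cells of a type and less RNA per cell cannot be told apart.

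Both the old and the SOD1 G93A spinal cords had lower levels of many of these genes, by different amounts and not always of the same genes. In old mice 20 of the 45 genes fell and 1 rose. The median log2 fold change over the 45 was -0.12, against -0.00273 over all 13647 genes tested, of which 12.9% were called lower and 13.5% higher. In the ALS model, the SOD1 G93A mice, 38 of the 45 fell and no gene rose, with a median of -0.65 against 0.00306 over all 14386 genes tested, of which 15.5% were called lower and 18.4% higher. A gene was called where the adjusted p was under 0.05 in edgeR's quasi-likelihood test, adjusted by the Benjamini-Hochberg method across the genes tested, and every adjusted p here comes from that test. Scaled to 20 pan-neuronal genes in place of all genes, as given last, 12 were lower and 6 higher in old mice, with a median of -0.03, and 9 were lower and 3 higher in SOD1 G93A mice, with a median of -0.18. The count of 0 genes higher in SOD1 G93A mice was also 0 at an unadjusted p under 0.05 and 0 with DESeq2. The study's own threshold adds a log2 fold change beyond 1. Past it lay 2 of the 45 in SOD1 G93A mice, Sv2b and Sv2c, where 1.2% of all genes tested were lower past it, and none in old mice, where 0.044% were.

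**Figure D1:**
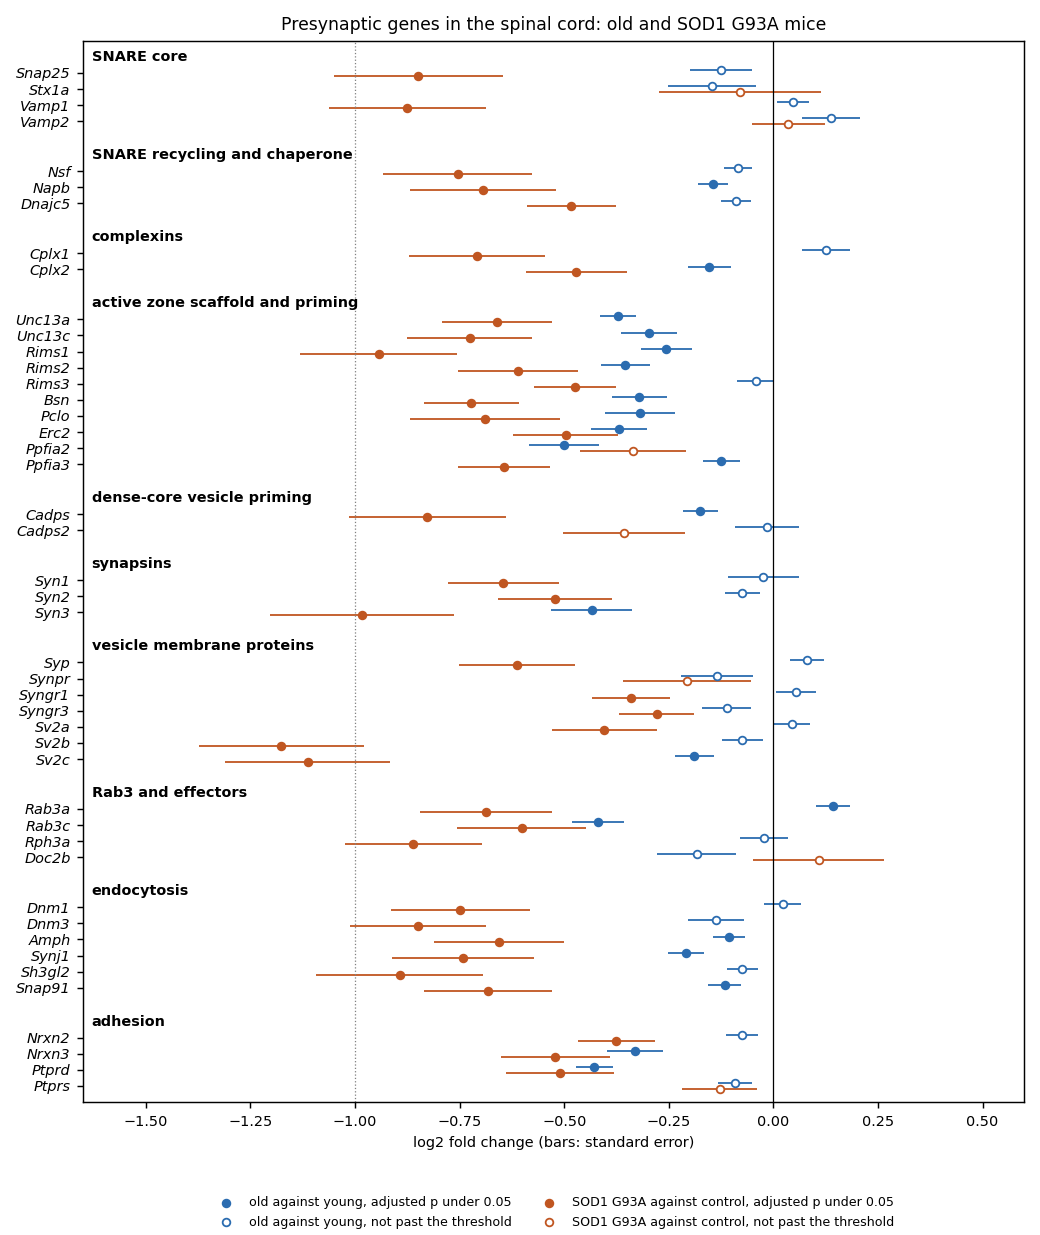
Log2 fold change (x axis) of the 45 presynaptic genes (y axis), grouped by role, in old against young mice (blue) and SOD1 G93A against control mice (orange), with bars for the standard error and filled points where the adjusted p was under 0.05. Most orange points lie to the left of the blue ones, active zone genes are filled in both colors except Rims3 and Ppfia2, and only Sv2b and Sv2c pass the dotted line at -1.

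The libraries held 5078092 to 9358055 counts in young mice, 5664869 to 9145600 in old mice, 10693060 to 13219797 in control mice and 9675610 to 11872431 in SOD1 G93A mice. Levels are given as CPM, counts scaled to library size with TMM factors. Mouse Sod1, onto which reads from the human transgene can also map, ranged from 156 to 168 CPM in control mice and from 296 to 335 CPM in SOD1 G93A mice. Libraries are numbered here by the order of the table's columns, which carry no replicate number of the labels. The SOD1 G93A libraries were unequal. The summed level of the 45 genes was 8859, 13625 and 10046 CPM in libraries 1, 2 and 3, against 17162 to 17852 CPM in the controls, and library 2 had the highest level of the 3 for 41 of the 45 genes. The sum over 20 pan-neuronal genes outside the 45 moved in the same order, at 5574, 7547 and 6279 CPM against 8918 to 9106 CPM, and 16 of the 20 fell, with a median log2 fold change of -0.53. In aging 9 of the 20 pan-neuronal genes fell and 1 rose, with a median of -0.13 beside -0.12 for the 45, and their sum was 6868 to 7849 CPM in old and 7399 to 7820 CPM in young mice. Motor neuron markers summed to 174, 167 and 155 CPM against 329 to 353 CPM, and 8 of 10 fell.

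Most microglia, macrophage and astrocyte markers moved in the opposite direction. The sum over 12 microglia and macrophage markers was 3173, 1645 and 2492 CPM in the SOD1 G93A libraries against 390 to 471 CPM in controls, with 10 of 12 rising. It was 660 to 1100 CPM in old against 376 to 424 CPM in young mice, with 11 of 12 rising. Of 7 astrocyte markers, 5 rose in the ALS model and 4 in aging, where 1 fell. Of 5 inhibitory neuron markers 3 fell in each comparison. Of 7 oligodendrocyte markers 2 fell and 1 rose in aging, and 0 were called in the ALS model. Of 3 oligodendrocyte precursor markers 1 fell in aging and 2 rose in the ALS model. Old library 6 stood apart, with the highest level of its group for 23 of the 45 genes, the highest summed level (19400 CPM against 16055 to 17018 CPM in the other old libraries) and the lowest microglia sum. Markers of sensory ganglion neurons summed to 5.91 CPM at most and those of skeletal muscle to 4.17 CPM at most. Schwann cell markers summed to 104 CPM in SOD1 G93A library 1 and 56.3 CPM in old library 5, and to 10.1 CPM at most elsewhere. What part these shifts have in the changes of the presynaptic genes was not tested, beyond the scaling to neuronal genes given last.

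Scaled to length as FPKM, which divides the reads of a gene by its transcript length and by library size, the 45 genes spanned a wide range of levels. In young mice Snap25, a SNARE of the plasma membrane, was highest at 1120 ± 50.5 FPKM (SD, n = 8). It was followed by the complexin Cplx1 at 580 ± 46.9 FPKM, the vesicle SNARE Vamp1 at 504 ± 19.5 FPKM and the vesicle GTPase Rab3a at 351 ± 11.8 FPKM. The lowest were Doc2b, a calcium sensor, at 2.77 ± 0.241 FPKM and the liprin Ppfia2 at 5.56 ± 0.709 FPKM. Genes of 1 family could lie far apart, as with Syn1 at 126 ± 7.8 FPKM and Syn3 at 7.4 ± 1.28 FPKM.

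Sequence near the start of some members is shown because it holds letter sequences known from promoters, as in the synapsin gene Syn1, the Munc13 gene Unc13a and the liprin gene Ppfia3. Promoter windows of 300 bases, from 250 before to 50 after the annotated start, were available from RefSeq on GRCm38.p6 for 36 of the 45 genes, as 48 windows. They were searched on both strands for the left part (TTCAGCACC) and the right part (GGACAGCGC) of RE1, the element bound by the repressor REST, and for the cyclic AMP response element (TGACGTCA), which is bound by CREB. The 3 letter sequences do not overlap each other. The left RE1 part was in 3 of the 48 windows, those of Syn1, Unc13a and Ppfia3, and in 0.371% of the 32851 windows of all genes. The right part was in the Unc13a window only, and in 0.405% of all windows. The cyclic AMP response element was in the windows of Syn1, Sh3gl2 and Ptprs (the last not shown), and in 1.79% of all windows. Capitals mark these letters, and each stretch reads 5′ to 3′ on the strand of its gene. The stretches lie upstream of the RefSeq start for Syn1 at chrX:20921049-20921168 (minus strand), Ppfia3 at chr7:45367020-45367079 (minus strand) and Sh3gl2 at chr4:85205409-85205437 (plus strand), and just after the start for Unc13a at chr8:71671726-71671754 (minus strand). GENCODE M21 starts Sh3gl2 earlier, at chr4:85205126, so the Sh3gl2 stretch lies inside the GENCODE span of the gene.
Syn1: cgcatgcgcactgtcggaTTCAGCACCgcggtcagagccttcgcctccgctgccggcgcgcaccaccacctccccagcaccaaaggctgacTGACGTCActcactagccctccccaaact
Ppfia3: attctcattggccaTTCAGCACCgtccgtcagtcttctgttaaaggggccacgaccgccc
Unc13a: agGCGCTGTCCgcgcccccGGTGCTGAAg
Sh3gl2: tcacccgcccTGACGTCAgggtgtctctc
In Unc13a both RE1 parts were found on the strand opposite to the gene. The letters say only that the sequence is there. No binding was measured.

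The SNARE core showed no gene past the threshold in old mice, also at an unadjusted p under 0.05 and with DESeq2, while 2 of its 4 genes fell in SOD1 G93A mice. Vamp1, the main vesicle SNARE of motor neurons, was at 1368, 1364 and 1325 CPM in control mice and 548, 982 and 682 CPM in SOD1 G93A mice. The groups did not overlap, where 24.7% of all genes tested were lower without overlap in this comparison. The log2 fold change of Vamp1 was -0.87 ± 0.19 (SE, adjusted p = 0.00856). Its relative Vamp2, the vesicle SNARE of most brain synapses, was at 323, 314 and 294 CPM in control mice and 301, 323 and 329 CPM in SOD1 G93A mice. The log2 fold change of Vamp2 was 0.04 ± 0.09 and did not pass (adjusted p = 0.783). Within a library the Vamp1 to Vamp2 ratio thus dropped, from a log2 ratio of 2.13 ± 0.0454 (SD, n = 3) to 1.17 ± 0.383, with no overlap of the groups. Snap25, the most abundant of the 45, was at 2825, 2869 and 2763 CPM in control mice and 1159, 2156 and 1381 CPM in SOD1 G93A mice, a log2 fold change of -0.85 ± 0.20 (adjusted p = 0.0132). Stx1a, a syntaxin of the plasma membrane, was at 10.8 to 17.8 CPM in control and 12.5 to 15.3 CPM in SOD1 G93A mice and did not pass the test in either comparison.

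The genes that take spent SNARE complexes apart or keep SNAREs folded fell by more in SOD1 G93A than in old mice, with an adjusted p of 0.00162 at most for the difference. All 3, the ATPase Nsf, its adaptor Napb and the vesicle chaperone Dnajc5, fell in SOD1 G93A mice, with log2 fold changes of -0.75, -0.69 and -0.48. In old mice Napb alone was called, at 399, 417 and 453 CPM (lowest, median and highest) in young and 358, 378 and 410 CPM in old mice, with a log2 fold change of -0.14 ± 0.04 (adjusted p = 0.00534). Nsf at -0.08 (adjusted p = 0.0689) and Dnajc5 at -0.09 (adjusted p = 0.0659) lay just outside the threshold, and DESeq2 called all 3 lower in old mice. The complexins, which clamp and then promote fusion, are encoded by 2 of the 45 genes. Cplx2 fell by 0.15 on the log2 scale (adjusted p = 0.0294), from 262, 293 and 313 CPM to 242, 254 and 313 CPM. Cplx1 was at 1159, 1288 and 1341 CPM in young and 1197, 1390 and 1702 CPM in old mice, and its log2 fold change of 0.13 did not pass (adjusted p = 0.11). Both fell in the ALS model. Cplx1 ranged from 541 to 872 CPM in SOD1 G93A mice and was at 1132, 1116 and 1085 CPM in controls, a log2 fold change of -0.71 ± 0.16, and Cplx2 at 164, 227 and 195 CPM against 280, 272 and 262 CPM, a log2 fold change of -0.47 ± 0.12. Both complexins were lower in each of the 3 SOD1 G93A libraries than in any control, as were 24.7% of all genes tested.

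Active zone scaffold and priming genes were the role with the most calls in old mice, 9 of 10, and 9 of 10 also fell in SOD1 G93A mice. Their median log2 fold change was -0.32 in aging and -0.65 in the ALS model. Unc13a, which encodes Munc13-1, the factor that makes docked vesicles fusion-ready, was at 145, 156 and 170 CPM (lowest, median and highest) in young mice and 115, 121 and 134 CPM in old mice. All 8 old libraries lay below all 8 young ones, and the log2 fold change was -0.37 ± 0.04 (adjusted p = 7.78e-07). Its ALS levels were 102, 141 and 104 CPM against 170, 187 and 192 CPM in controls, a log2 fold change of -0.66 ± 0.13 (adjusted p = 0.00672). Its relative Unc13c, known best from the cerebellum, fell in both. It was at 135, 163 and 188 CPM in young and 119, 131 and 152 CPM in old mice, with overlap, and at 108, 158 and 115 CPM in SOD1 G93A mice against 194, 231 and 204 CPM in controls, without. The log2 fold changes were -0.30 ± 0.07 and -0.73 ± 0.15.

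RIM proteins tether vesicles and calcium channels at the active zone, and 3 of their genes were measured. Rims2 was at 38.7, 40.8 and 46.3 CPM in young and 31.2, 32.2 and 38.4 CPM in old mice. Again no old library reached a young one, and the log2 fold change was -0.35 ± 0.06 (adjusted p = 8.89e-05). Rims1 fell by 0.26 in old mice (adjusted p = 0.00308), and Rims3 had a log2 fold change of -0.04 (adjusted p = 0.521). For Rims1, SOD1 G93A mice were at 39.4, 70.6 and 46.4 CPM against 93.6, 106 and 99.9 CPM in controls, a log2 fold change of -0.94 ± 0.19 (adjusted p = 0.00655). Rims2 fell there by 0.61, at 25, 33.8 and 24 CPM against 44.5, 43.9 and 37.9 CPM. Rims3, the short RIM protein, fell by 0.47, at 114, 135 and 120 CPM against 174, 158 and 181 CPM. For all 3 genes the SOD1 G93A and control libraries did not overlap, where 24.7% of all genes tested were lower without overlap.

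The giant scaffold Bassoon, encoded by Bsn, had the smallest adjusted p of the 45 in SOD1 G93A mice. Bsn was at 88.8, 111 and 87.4 CPM against 147, 155 and 171 CPM in controls, and its log2 fold change was -0.72 ± 0.11 (adjusted p = 0.00258). In old mice it fell by 0.32 (adjusted p = 0.000965), with young libraries at 155 to 223 CPM and old ones at 138 to 186 CPM. Piccolo, encoded by Pclo, fell by 0.32 in old and 0.69 in SOD1 G93A mice. Erc2, a scaffold protein of the ELKS family, was at 34.2, 39.4 and 45 CPM in young and 26.8, 30 and 35.3 CPM in old mice, a log2 fold change of -0.37 ± 0.07 (adjusted p = 0.000241). The groups overlapped slightly.

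The 2 liprin genes measured encode proteins that help assemble the active zone. Ppfia2 had the lowest log2 fold change of the 45 in old mice, -0.50 ± 0.08 (adjusted p = 0.000101), with young libraries at 26.1, 31.1 and 37.8 CPM and old libraries at 17.5, 22.6 and 27 CPM. The SOD1 G93A libraries were at 26.8, 36.9 and 28.6 CPM against 38.5, 38.1 and 39.4 CPM. Those groups did not overlap, but the log2 fold change of -0.34 ± 0.13 did not pass (adjusted p = 0.0698). Ppfia3 showed the reverse order, with log2 fold changes of -0.12 ± 0.05 in aging (adjusted p = 0.0449) and -0.64 ± 0.11 in the ALS model (adjusted p = 0.00359), where it was at 54.6, 72.8 and 61.2 CPM against 96.4, 101 and 96.7 CPM. CAPS proteins prime dense-core vesicles, which carry peptides. Cadps fell in both comparisons, with 363, 390 and 420 CPM in young and 309, 343 and 380 CPM in old mice and 183, 302 and 181 CPM against 383, 414 and 383 CPM in SOD1 G93A and control mice, and log2 fold changes of -0.17 ± 0.04 and -0.83 ± 0.19. Cadps2 passed in neither, although its SOD1 G93A libraries, at 16.4, 21.7 and 16.5 CPM, did not overlap with the controls, at 21.7, 21.9 and 26 CPM (log2 fold change -0.36 ± 0.15, adjusted p = 0.0887).

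Synapsins bind vesicles into a reserve pool. All 3 fell in SOD1 G93A mice, and 1 of them, Syn3, in old mice. Syn1 was at 206, 299 and 234 CPM in SOD1 G93A mice against 382, 392 and 382 CPM in controls, a log2 fold change of -0.65 ± 0.13 (adjusted p = 0.0074). For Syn1 the aging comparison gave -0.02 ± 0.08 on the log2 scale, and old library 6 lay at 623 CPM where the next old library lay at 422 CPM. Syn3 was at 16, 17.3 and 19.6 CPM in young and 9.38, 13 and 15.9 CPM in old mice, with no overlap and a log2 fold change of -0.43 ± 0.10 (adjusted p = 0.00176). The log2 fold change of Syn3 in the ALS model was -0.98 ± 0.22 (adjusted p = 0.0102), on levels of 7.8, 11.7 and 7.25 CPM against 14.6, 21.6 and 16.4 CPM. Syn2 fell by 0.52 in SOD1 G93A mice, at 152, 227 and 183 CPM against 262, 276 and 269 CPM, and did not pass in old mice, at 256, 267 and 278 CPM in young and 230, 250 and 287 CPM in old mice.

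**Figure D2:**
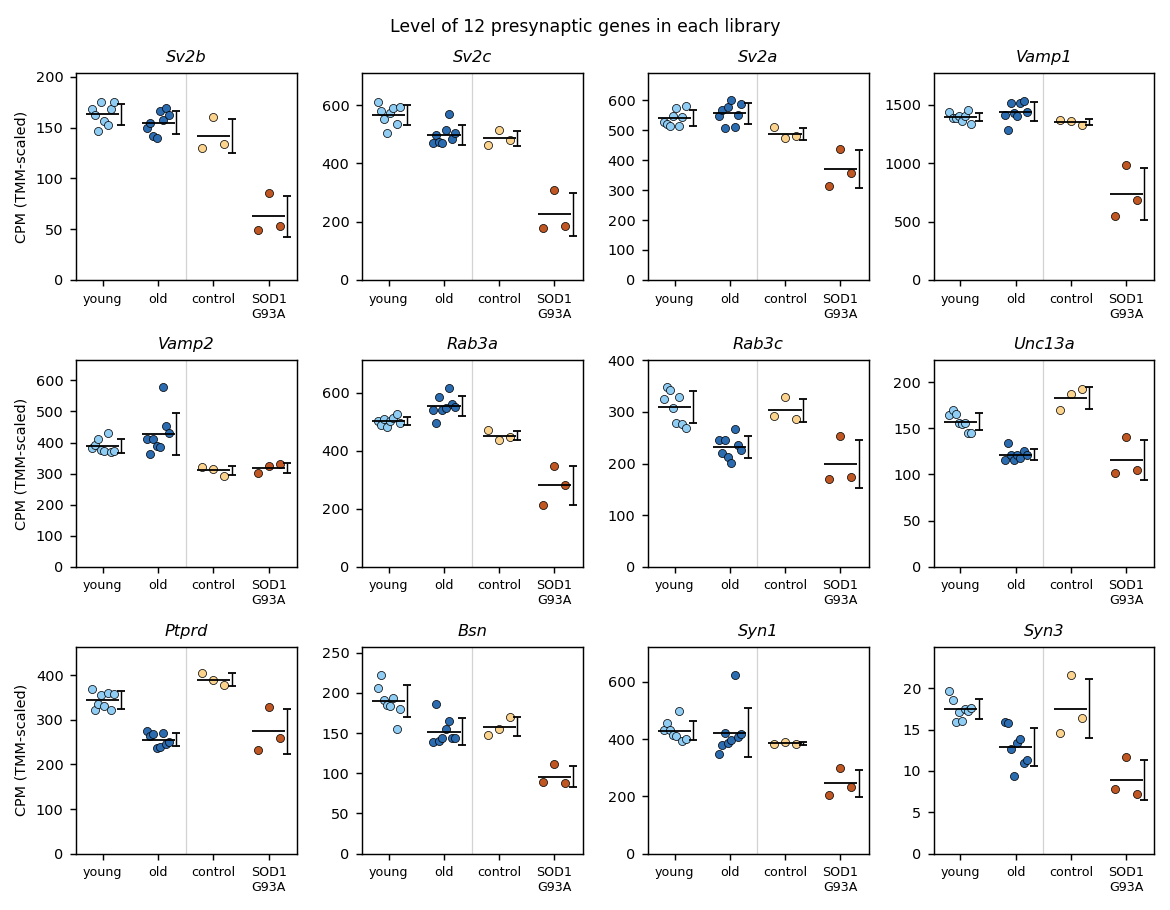
Level in CPM (y axis, from 0) of 12 presynaptic genes in each library of the 4 groups, with 1 point per mouse, lines for the mean and bars for the SD. The SOD1 G93A points lie below the control points except for Vamp2, the middle SOD1 G93A point (library 2) is the highest of its group except for Vamp2, and the old points of Unc13a, Rab3c, Ptprd and Syn3 all lie below the young points.

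Among the 7 vesicle membrane proteins, the SV2 family gave the largest changes. SV2 proteins are transporter-like glycoproteins of the vesicle, and Sv2a is the target of the antiepileptic drug levetiracetam. Sv2b (chr7:75114894-75309262 on GRCm38, minus strand) was at 48.9, 85.7 and 53.5 CPM in SOD1 G93A mice against 130, 161 and 133 CPM in controls, a log2 fold change of -1.18 ± 0.20 (adjusted p = 0.00336). Sv2c (chr13:95954594-96132577, minus strand) was at 178, 310 and 186 CPM against 464, 514 and 480 CPM, a log2 fold change of -1.11 ± 0.20 (adjusted p = 0.00418). Both had their lowest levels in libraries 1 and 3 and a higher one in library 2. Without library 2, 11 of the 45 genes lay past a log2 fold change of -1 with an adjusted p under 0.05, and without library 1 or library 3, 1 did. The share of all genes past these limits was not counted in those fits, so the counts show only how far the calls depend on single libraries. Sv2a fell less, at 313, 438 and 357 CPM against 511, 473 and 481 CPM, with a log2 fold change of -0.40 ± 0.13 (adjusted p = 0.0357). Sv2c fell by 0.19 in old mice (adjusted p = 0.00383), with 505, 575 and 610 CPM in young and 468, 491 and 569 CPM in old mice. Sv2b was at 147, 165 and 175 CPM in young and 140, 156 and 169 CPM in old mice and Sv2a at 513, 535 and 579 CPM in young and 507, 558 and 601 CPM in old mice, and neither passed.

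The other vesicle membrane proteins are tetraspan proteins related to synaptophysin. Syp, synaptophysin itself, fell by 0.61 in SOD1 G93A mice (adjusted p = 0.0106), at 411, 611 and 490 CPM against 777, 758 and 776 CPM, and did not pass in old mice (log2 fold change 0.08, adjusted p = 0.141). Synpr, synaptoporin, passed in neither comparison. Syngr3 fell by 0.28 in SOD1 G93A mice (adjusted p = 0.0401), at 54.1, 64.1 and 60.1 CPM against 73.6, 69.3 and 73.2 CPM. Syngr1 fell by 0.34 in SOD1 G93A mice by counts (adjusted p = 0.0223), but its deposited FPKM went the other way. It was at 216, 259 and 237 CPM against 298, 299 and 304 CPM, and at 81.1, 74.3 and 84.9 FPKM against 71.1, 72.1 and 71.6 FPKM, a difference of 0.16 on the log2(FPKM + 1) scale (limma, adjusted p = 0.194). No other gene of the 45 that was called by counts differed in direction between the tables, in either comparison. FPKM from RSEM divides by a transcript length that is estimated in each library. Whether the transcripts used differ was not tested.

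Rab3 GTPases recruit effectors to vesicles before fusion, and 2 of their genes were among the 45. Rab3a (chr8:70754679-70758677, plus strand) was the only one of the 45 to rise, from 481, 502 and 529 CPM in young to 496, 551 and 617 CPM in old mice, a log2 fold change of 0.14 ± 0.04 (adjusted p = 0.0117). The groups overlapped, and a single fit of all 22 libraries did not call Rab3a in old mice. Rab3c was at 268, 317 and 348 CPM in young and 200, 231 and 266 CPM in old mice, with no overlap and a log2 fold change of -0.42 ± 0.06 (adjusted p = 2.22e-05). Both were lower in SOD1 G93A mice, Rab3a by 0.69 (adjusted p = 0.0112), on levels of 215, 348 and 281 CPM against 471, 438 and 449 CPM, and Rab3c by 0.60 (adjusted p = 0.0171), at 171, 254 and 175 CPM against 293, 329 and 287 CPM. The effector rabphilin, Rph3a, was at 367, 598 and 431 CPM against 836, 876 and 822 CPM, a log2 fold change of -0.86 ± 0.16 (adjusted p = 0.0055), and at -0.02 ± 0.06 in old mice. Doc2b passed in neither.

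All 6 endocytosis genes fell in SOD1 G93A mice, with log2 fold changes from -0.89 to -0.66, and 3 of 6 fell in old mice. Dynamins cut the neck of the budding vesicle. Dnm3 was at 174, 273 and 187 CPM in SOD1 G93A mice against 364, 408 and 370 CPM in controls, a log2 fold change of -0.85 ± 0.16 (adjusted p = 0.0056), and Dnm1 fell by 0.75, at 416, 692 and 520 CPM against 884, 929 and 921 CPM. Neither passed in old mice. There Dnm3 was at 309, 355 and 400 CPM in young and 270, 316 and 419 CPM in old mice and Dnm1 at 912, 969 and 1000 CPM in young and 877, 960 and 1139 CPM in old mice, and both pairs of groups overlapped. Synj1, the phosphatase synaptojanin that sheds the clathrin coat, was at 293, 317 and 334 CPM in young and 249, 277 and 299 CPM in old mice, a log2 fold change of -0.21 ± 0.04 (adjusted p = 0.00087), and fell by 0.74 in SOD1 G93A mice. Endophilin, Sh3gl2, fell by 0.89 in SOD1 G93A mice (adjusted p = 0.0102) and did not pass in old mice (log2 fold change -0.07, adjusted p = 0.137). Amphiphysin, Amph, and the clathrin adaptor Snap91 fell in both, with log2 fold changes of -0.11 ± 0.04 and -0.12 ± 0.04 in aging and -0.66 ± 0.16 and -0.68 ± 0.15 in the ALS model.

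Presynaptic adhesion molecules hold the terminal to its partner. Ptprd (chr4:75941238-78211961, minus strand), a receptor phosphatase, had the smallest adjusted p of the 45 in old mice. It was at 321, 346 and 370 CPM in young and 237, 257 and 275 CPM in old mice, with no overlap and a log2 fold change of -0.43 ± 0.04 (adjusted p = 1.35e-07). Its relative Ptprs was at 280, 300 and 344 CPM in young and 273, 286 and 301 CPM in old mice, and its log2 fold change of -0.09 ± 0.04 did not pass (adjusted p = 0.0993). The neurexin Nrxn3 was at 182, 209 and 228 CPM in young and 149, 156 and 214 CPM in old mice, a log2 fold change of -0.33 ± 0.07 (adjusted p = 0.00073), and Nrxn2 did not pass. In the ALS model 3 of the 4 fell. Ptprd fell by 0.51, at 233, 330 and 260 CPM in SOD1 G93A mice against 405, 388 and 377 CPM in controls. Nrxn3 fell by 0.52, at 134, 184 and 141 CPM against 211, 236 and 210 CPM, and Nrxn2 by 0.38, at 216, 214 and 209 CPM against 267, 258 and 304 CPM. Ptprs, at 263, 264 and 286 CPM against 296, 278 and 314 CPM, had a log2 fold change of -0.13 ± 0.09 and overlapped (adjusted p = 0.3). Libraries of the groups did not overlap, with the lower level in the affected group, for 6 of the 45 genes in aging and 40 in the ALS model, against 1.66% and 24.7% of all genes tested.

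The 2 comparisons overlapped in 19 genes called lower in both, which are 95% of the 20 lower with age and 50% of the 38 lower in the ALS model. Since 38 of all 45 were lower in the ALS model, most of any 20 of them would overlap by that share alone. The share of all genes called lower in both was not counted. Ppfia2 was called in old mice alone. The size of the change was compared directly by an interaction term in a fit of all 22 libraries, as the log2 fold change of ALS minus that of aging. It was negative with an adjusted p under 0.05 for 31 of the 45 genes, against 14.2% of the 14502 genes tested, and positive for 0, which was also 0 at an unadjusted p under 0.05 and 0 with DESeq2. The median over the 45 was -0.47. The smallest adjusted p values belonged to Sv2b (-1.13 ± 0.15), Rab3a (-0.86 ± 0.12), Vamp1 (-0.95 ± 0.14), Syp (-0.72 ± 0.11) and Sv2c (-0.95 ± 0.15). Of the 19 genes lower in both, 13 were lower by more in SOD1 G93A mice. For the other 6, namely Rims2, Pclo, Erc2, Rab3c, Nrxn3 and Ptprd, the difference did not pass, as with Ptprd at -0.11 ± 0.11 (adjusted p = 0.502). Kit, age and sex makeup differ between the comparisons along with the disease and cannot be told apart in this term. The fit also estimates the spread of each gene from all 22 libraries together. For Vamp1 and Sv2b the SE of the difference (0.14 and 0.15) was below that of the ALS change alone (0.19 and 0.20). The p values of this term may therefore understate the spread among the SOD1 G93A mice.

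Related genes were next set against each other inside each library, where the library's scaling cancels. The 15 pairs were chosen after the values were seen, so their log2 ratios are a description, with no test. The log2 ratio of Rab3a to Rab3c moved from 0.71 ± 0.161 (SD, n = 8) to 1.27 ± 0.101, that of Ptprs to Ptprd from -0.18 ± 0.107 to 0.16 ± 0.113, and that of Rims3 to Rims2 from 2.06 ± 0.111 to 2.37 ± 0.114. For these 3 pairs the young and old libraries did not overlap, and for the other 12 they did. The log2 ratio of Cplx1 to Cplx2 was 0.27 ± 0.06 (SE) higher in old mice, with overlap.

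For the ALS comparison the groups did not overlap for 8 of the 15 pairs. Among single genes, 24.7% of all genes tested were lower without overlap in this comparison of 3 with 3 libraries. The share over other pairs of genes was not computed for either comparison, so the counts of pairs are a description only. The widest gap was Vamp1 to Vamp2, given above. The log2 ratio of Sv2a to Sv2b moved from 1.79 ± 0.213 (SD, n = 3) to 2.59 ± 0.207 and that of Sv2a to Sv2c from 0.00784 ± 0.129 to 0.75 ± 0.23. Rab3a to Rab3c, which had moved most in old mice, was at 0.58 ± 0.147 in controls and 0.49 ± 0.178 in SOD1 G93A mice, with overlap.

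**Figure D3:**
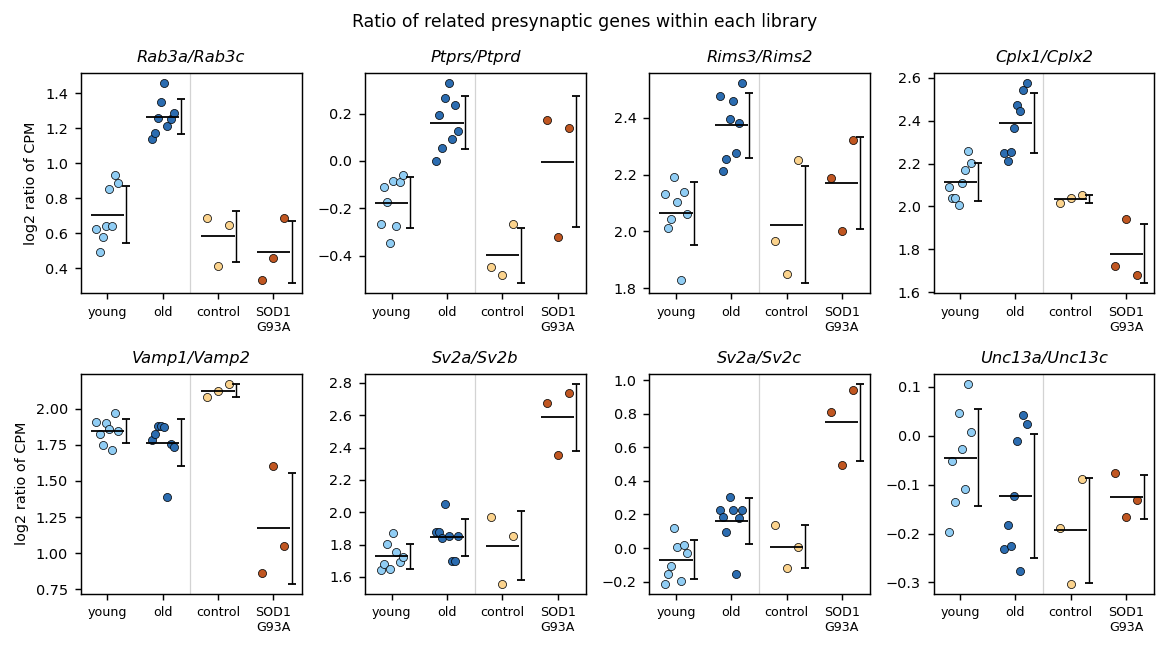
Log2 ratio of the CPM of 2 related genes (y axis) in each library of the 4 groups for 8 of the 15 pairs, with lines for the mean and bars for the SD. The Rab3a/Rab3c, Ptprs/Ptprd and Rims3/Rims2 ratios of all old libraries lie above all young ones, and the Vamp1/Vamp2 ratio is lower and both Sv2a ratios are higher in all 3 SOD1 G93A libraries than in the controls.

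The members are long genes, with a median span on the genome of 94.4 kb against 25.9 kb for all genes tested in aging. Across the 45 genes, the log2 fold change in old mice fell with the span (Spearman's rho = -0.575), and across all 13635 genes with an annotated span it did so less steeply (rho = -0.328). With exonic length in place of span, rho was -0.606 across the 45 and -0.385 across all genes. Which of these lengths goes with the change was not tested. These are descriptions across genes, which share libraries and are not independent replicates. Of the 18 members longer than 150 kb, 13 were called lower in old mice, with a median log2 fold change of -0.28. Over all 1316 genes of that span tested, 33.7% were called lower and the median was -0.13. Of the 27 shorter members 7 were called lower and 1 higher, with a median of -0.08, beside 10.7% lower and a median of 0.00988 for all 12319 shorter genes. Unc13a at 47.3 kb fell by 0.37, and Cadps2 at 577 kb was at -0.02, so span and change also came apart. For SOD1 G93A mice the rho was -0.295 across members and -0.172 across all genes, and the medians of long and short members were -0.67 and -0.64. The rho with exonic length was -0.187 and -0.162 there.

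**Figure D4:**
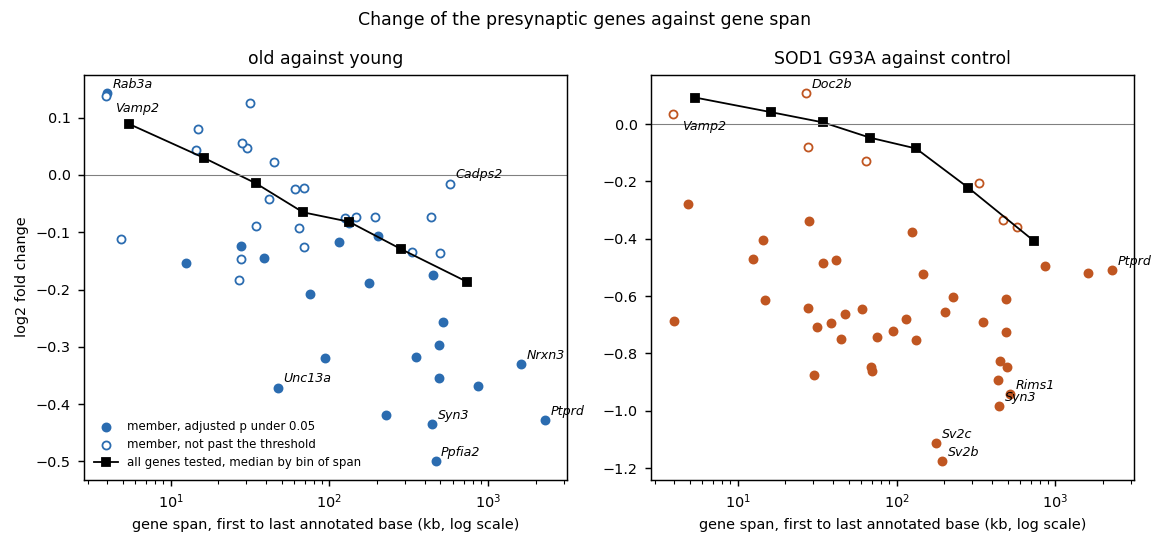
Log2 fold change (y axis) of the 45 genes against gene span in kb (x axis, log scale) in old against young mice (left) and SOD1 G93A against control mice (right), with filled points where the adjusted p was under 0.05 and black squares for the median of all genes tested in bins of span. The black line falls with span in both panels. Long members such as Ptprd, Nrxn3, Ppfia2 and Syn3 lie below it in old mice, and most members of any length lie below it in SOD1 G93A mice.

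The level also went with the change in old mice. Across the 45 genes the log2 fold change rose with the FPKM of young mice (rho = 0.692), whereas across all 13647 genes tested rho was -0.00821. FPKM is divided by transcript length, so this relation and that with exonic length are not independent. Abundant members such as Cplx1, Vamp1, Rab3a, Syp and Dnm1 had log2 fold changes above 0 in old mice, of which Rab3a alone passed. Others were below 0 and did not pass, namely Snap25, the most abundant, at -0.13, Nsf at -0.08, Rph3a at -0.02 and Syn1 at -0.02. With SOD1 G93A, the rho with the FPKM of controls was -0.278 across members and -0.254 across all genes.

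Other genes of the same pathway, 81 in all, were read from a list that holds none of the 45. In old mice 78 were tested, of which 26 fell and 8 rose, with a median log2 fold change of -0.08, where 12.9% of all genes tested were lower and 13.5% higher. In SOD1 G93A mice 79 of them were tested, of which 35 fell and 6 rose, with a median of -0.28, where 15.5% and 18.4% of all genes were. In the active zone part of the list 10 of 18 fell in old and 11 of 18 in SOD1 G93A mice, with medians of -0.21 and -0.45. The calcium channel genes Cacna1a and Cacna1b, which encode the P/Q-type and N-type pores that trigger release, fell in both, by 0.34 and 0.34 with age and 0.46 and 0.58 in the ALS model. The 6 that rose in SOD1 G93A mice included Vamp3 by 0.47 and Dnm2 by 0.66, members of the same families that are expressed in many cell types. The others were the adhesion gene Nrcam by 0.55, Rab3d by 0.69, Sh3gl1 by 0.43 and Sytl4 by 1.31, the last at 0.769 CPM in controls and 1.92 CPM in SOD1 G93A mice.

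The last comparison scaled the libraries by the summed level of the 20 pan-neuronal genes in place of all genes, to describe the members relative to other neuronal RNA. This scaling moves the median of all genes to 0.50 in the ALS comparison and 0.09 in the aging comparison. In SOD1 G93A mice 9 of the 45 genes stayed lower than the neuronal genes with an adjusted p under 0.05 and 3 were higher, against 1.78% and 53.6% of all genes tested. The median of the 45 was -0.18, which is 0.675 below the median of all genes under this scaling, beside 0.649 below it under TMM. Sv2b was at -0.72, Sv2c at -0.66, Rims1 at -0.49 and Vamp1 at -0.42, while Doc2b was at 0.61, Vamp2 at 0.53 and Ptprs at 0.37. Syn1 was at -0.18 and did not pass (adjusted p = 0.164). In old mice 12 of the 45 were lower and 6 higher, against 4.91% and 24.6% of all genes tested. Ppfia2 was at -0.41, Ptprd at -0.34, Rab3c at -0.33 and Unc13a at -0.28, and Rab3a was at 0.23 and Vamp2 at 0.22.

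**Figure D5:**
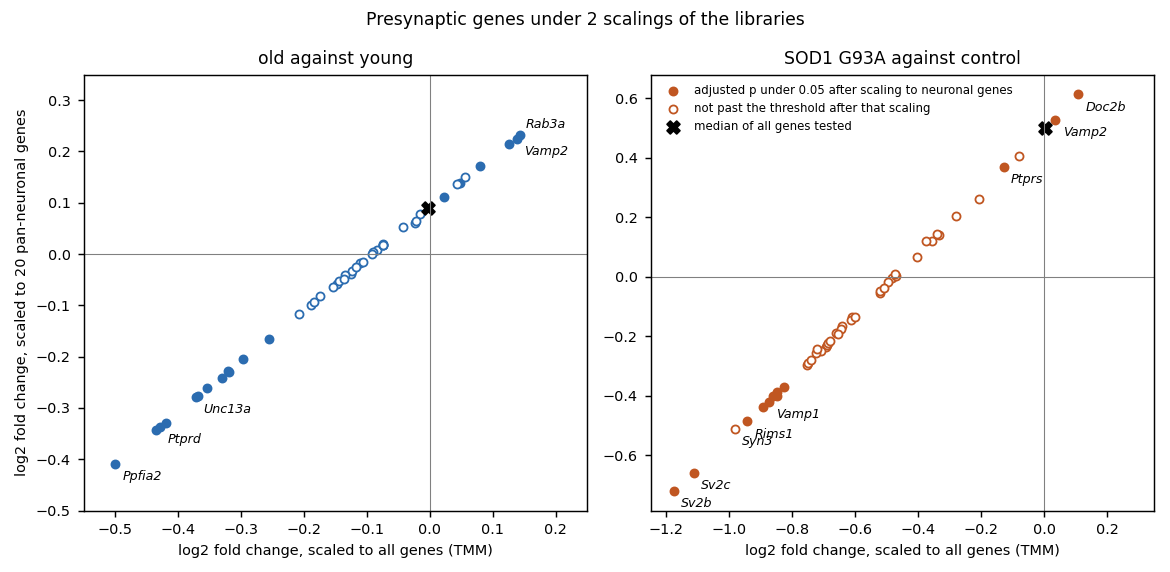
Log2 fold change of the 45 genes scaled to all genes with TMM (x axis) and scaled to 20 pan-neuronal genes (y axis), in old against young mice (left) and SOD1 G93A against control mice (right), with filled points where the adjusted p after neuronal scaling was under 0.05 and a cross for the median of all genes tested. In SOD1 G93A mice 9 genes stay called below 0 and 3 above it, and in old mice 12 below and 6 above.

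With each of the 6 ALS libraries left out in turn, which leaves fewer samples, the median log2 fold change of the 45 in SOD1 G93A mice stayed between -0.81 and -0.53, while 26 of the 38 calls were lost at least once. The other 12 kept an adjusted p under 0.05 every time, namely Vamp1, Unc13a, Unc13c, Rims1, Rims3, Bsn, Ppfia3, Syn1, Sv2b, Sv2c, Rph3a and Dnm3. The number called ranged from 12 without SOD1 G93A library 3 to 41 without library 2, and was 23 without control library 2. The share of all genes called was not counted in the fits with a library left out. The median was -0.59 without SOD1 G93A library 3 and -0.63 without control library 2. A single fit of all 22 libraries called 13 lower in old mice in place of 20. In old mice 16 of the 20 genes kept the call with every library left out in turn. Exons of Unc13a, Ppfia2, Syn1, Syn2, Syn3, Rab3a and Nrxn2 overlap those of a protein-coding gene on the opposite strand, and whether counting used the strand is not given in the sources used here, so the values of these 7 genes may hold reads of their neighbors.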

How the data were processed

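RNA was extracted from whole mouse spinal cords with TRIzol and a Qiagen kit. The authors aligned reads to mm10 with STAR and quantified them with RSEM on the Ensembl 88 annotation, with SAMtools 1.3 among the tools. They deposited expected counts, which are whole numbers in the file, and log2 values of FPKM plus 1. All columns were assigned to groups by name, with no replicate number. Libraries of a group differed by more than sampling noise (chi-square per degree of freedom at least 2.52). That they are separate mice is from the study's text.

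Each comparison was fitted with edgeR 4.0.16 (TMM, filterByExpr with a minimum count of 10 and total of 15, quasi-likelihood test, Benjamini-Hochberg adjustment over all genes tested) in R 4.3.3, after tests on simulated data. Alternatives used DESeq2 1.42.0, RLE factors, other filters, 1 fit of all libraries, limma 3.58.1 on log2(FPKM + 1), scaling to 20 pan-neuronal genes, and each library left out. Gene positions came from GENCODE M21, which holds 21919 of the 21995 genes, and promoters from RefSeq GRCm38.p6. The members, lists and naming rule were chosen with earlier results of these data known. Values per library are given for genes past a log2 fold change of 1, the 8 with the smallest adjusted p per comparison, those that rose, the 5 with the smallest adjusted p for the difference, and related genes. Other named genes, and the pairs of related genes, were chosen after their values were seen. Tprg1l was not used here.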

Additional observations from a re-analysis of the deposited data

Results flagged for a closer look

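A library stood apart from its group in 8 of the 90 combinations of a gene with the young or the old group, by Dixon's criterion on the gap to the nearest library, which chance alone passes in about 1 in 20 groups. All 8 were in old mice. Old library 6 was the highest for Vamp2 (580 CPM), Syn1 (623 CPM), Sv2c (569 CPM), Rph3a (1063 CPM) and Dnm3 (419 CPM). Old library 2 was the highest for Rims2 (38.4 CPM), old library 8 the highest for Synpr (28.5 CPM) and old library 4 the lowest for Rims1 (62.3 CPM).

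The change in SOD1 G93A mice was more negative than the change in old mice for 31 genes (edgeR's quasi-likelihood test of the interaction, adjusted p from 1.76e-05 to 0.0435), given here as the difference in log2 fold change. Among SNARE genes and their helpers these were Snap25 (-0.75), Vamp1 (-0.95), Nsf (-0.70), Napb (-0.58), Dnajc5 (-0.42), Cplx1 (-0.86) and Cplx2 (-0.35). Priming and active zone genes were Unc13a (-0.32), Unc13c (-0.46), Rims1 (-0.72), Rims3 (-0.46), Bsn (-0.43), Ppfia3 (-0.55) and Cadps (-0.68). Synapsins and vesicle proteins were Syn1 (-0.65), Syn2 (-0.48), Syn3 (-0.58), Syp (-0.72), Syngr1 (-0.42), Sv2a (-0.47), Sv2b (-1.13), Sv2c (-0.95), Rab3a (-0.86) and Rph3a (-0.86). Endocytosis and adhesion genes were Dnm1 (-0.80), Dnm3 (-0.74), Amph (-0.58), Synj1 (-0.56), Sh3gl2 (-0.85), Snap91 (-0.59) and Nrxn2 (-0.33). The spread in this test was estimated from the libraries of both comparisons together, so its p values may understate the spread among the SOD1 G93A mice.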

How the results depend on the processing

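No paired analysis was possible because the tables' columns carry no replicate number of the labels. DESeq2, RLE factors, no filter and at least 10 counts in every library changed no direction among the 45 genes and called 38 lower in SOD1 G93A mice each time and 19 to 22 in old mice, with 31 differences between the comparisons under DESeq2 and RLE factors. A single fit of all libraries called 13 lower and 0 higher in old mice and 40 lower in SOD1 G93A mice, and limma on log2(FPKM + 1) called 17 and 33 lower. With 3 mice a group, Ppfia2 (-0.34 ± 0.13) and Cadps2 (-0.36 ± 0.15) did not pass in SOD1 G93A mice. Syngr1 (-0.34 ± 0.09) and Nrxn2 (-0.38 ± 0.09) did pass, at log2 fold changes of similar size with a smaller SE. What part depth has in this was not tested. Leaving out a library also leaves fewer samples. The cause of each change was not tested.

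Scaled to pan-neuronal genes, 12 genes were lower and 6 higher in old mice with a median of -0.033, and 9 were lower and 3 higher in SOD1 G93A mice with a median of -0.18 and 0 past -1, whatever the p. The sign turned in old mice, with no call either way, for Nsf (0.00794), Dnajc5 (0.00374), Rims3 (0.053), Cadps2 (0.079), Syn1 (0.061), Syn2 (0.019), Sv2b (0.018), Rph3a (0.065), Sh3gl2 (0.018) and Nrxn2 (0.017). In SOD1 G93A mice it turned for Stx1a (0.41), Cplx2 (0.00242), Rims3 (0.00928), Ppfia2 (0.14), Cadps2 (0.12), Synpr (0.26), Syngr1 (0.14), Syngr3 (0.21), Sv2a (0.068), Nrxn2 (0.12) and Ptprs (0.37), of which Ptprs alone was called under this scaling. Of these genes Cplx2, Rims3, Syngr1, Syngr3, Sv2a and Nrxn2 had been called lower under TMM. On log2(FPKM + 1) the sign turned for Vamp1 (-0.000966) and Cadps2 (0.061) in old mice and for Syngr1 (0.16) in SOD1 G93A mice, with no call on that scale.

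With 1 library left out, genes higher in old mice numbered 1 to 3 (3 without old library 2), genes lower in old mice 16 to 23, genes lower in SOD1 G93A mice 12 (without SOD1 G93A library 3) to 41 (without library 2), those past -1 from 1 (without library 1 or 3) to 11 (without library 2), and differences between the comparisons 26 to 37. The sign of uncalled changes turned within -0.049 to 0.017 for Cadps2, -0.12 to 0.010 for Syn1 (the former without old library 6) and -0.013 to 0.041 for Dnm1 in old mice, within -0.27 to 0.073 for Stx1a, -0.00532 to 0.079 for Vamp2 and -0.00903 to 0.18 for Doc2b in SOD1 G93A mice, and for the difference within -0.15 to 0.20 for Stx1a, -0.024 to 0.23 for Ppfia2, -0.29 to 0.031 for Synpr and -0.27 to 0.00464 for Ptprd. On the deposited log2(FPKM + 1) values, an alternative added after the data were seen, none of the 15 ratios turned direction in old mice.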
